A study of Mus musculus with 10 samples.

Results

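The mitochondrial ribosomal protein genes were followed in dorsal skin of C57BL/6 mice by RNA sequencing. They were taken as all entries of the deposited gene table whose symbol begins with Mrpl or Mrps and a number, without pseudogenes, which gave 78 of 24543 entries. Total RNA came from Dlx4-KO skin at postnatal day 60 (P60, 2 samples), Dlx4-WT skin at P60 (2 samples), Dlx4-KO skin at P1 (3 samples) and Dlx4-WT skin at P1 (3 samples). Dlx4 is a homeobox transcription factor, and the series asks what its ablation changes in skin relative to wild-type littermates. The sources used here do not say how the gene was ablated or whether samples of a group came from separate litters, so p-values measure the spread between these samples only. Values are RPKM, which divides the reads of a gene by its length and by the size of the library, and changes are differences of log2(RPKM + 0.5), which understate those of low genes.

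Mitochondria keep a ribosome of their own, which resembles the bacterial one and makes the few membrane proteins of the respiratory chain that mitochondrial DNA encodes. All of its proteins are encoded in the nucleus, made in the cytosol and imported, then assembled on mitochondrial RNA into a large subunit, which joins the amino acids, and a small subunit, which reads the messenger. Some of these proteins are counterparts of bacterial ribosomal proteins and others have their place only in the mitochondrial ribosome. Tissues rich in mitochondria, such as muscle and brown fat, are known for high levels of them.

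The authors listed 36131011 to 74916106 alignments per library. Dlx4 had 1.77, 2.45 and 1.62 RPKM in KO skin at P1, against 2.93, 3.78 and 3.42 in WT skin at P1, so the KO libraries were the lower ones but not at 0. At P60 it had 0.000294 and 0 RPKM in KO skin and 0 and 0.125 RPKM in WT skin, which is too low to check the labels. The P60 libraries came from 1 sequencing run and the P1 libraries from another. The Y-linked Eif2s3y had 22.3 to 26.9 RPKM in the 4 P60 libraries and 35.0 RPKM in KO replicate 2 at P1, and 0 to 0.0164 RPKM in 5 P1 libraries, where Xist had 29.2 to 39.8 RPKM. Age, run and the sex shown by these genes therefore cannot be told apart, and only 1 library at P1 is of the type seen at P60. The epidermal, hair, muscle and matrix marker genes expected of whole skin were present, except that the 5 hair follicle markers summed to 0.324 and 0.376 RPKM in KO and 0.674 and 0.343 RPKM in WT skin at P60, against 1853, 2416 and 2054 RPKM in KO and 1468, 2804 and 1626 RPKM in WT skin at P1.

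All 78 members passed the filter of at least 1 RPKM in at least 2 libraries, and 14026 genes were tested in all. The members comprise 51 large-subunit proteins, 26 small-subunit proteins and Mrps36, which despite its name is a component of the 2-oxoglutarate dehydrogenase complex and is not seen in ribosome structures. By their place in the ribosome, 45 are counterparts of bacterial proteins and 32 are mitochondria-specific. The mitochondria-specific class includes Mrps18a and Mrps18b, which are related to bacterial S18 but sit elsewhere. The mean RPKM of the members over the 10 libraries spanned 22.2-fold, with a median of 22.1 RPKM. The highest were Mrpl52, Mrps21, Mrpl42, Mrpl33 and Mrpl30, and the lowest Mrpl15, Mrpl35, Mrpl17, Mrpl19 and Mrpl1. Mrpl52, a mitochondria-specific large-subunit protein, had 94.7 and 112 RPKM in KO and 111 and 126 RPKM in WT skin at P60, and 71.1, 65.4 and 70.3 RPKM in KO and 69.7, 63.5 and 72.5 RPKM in WT skin at P1. Mrpl1, counterpart of the bacterial protein of the L1 stalk, had 2.95 and 3.53 RPKM in KO and 4.10 and 4.17 RPKM in WT skin at P60, and 3.91, 4.08 and 4.08 RPKM in KO and 4.01, 3.92 and 3.78 RPKM in WT skin at P1. The 2 P60 groups did not overlap for Mrpl1 and overlapped for Mrpl52.

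The promoters of 5 members on which the results turn are shown, to let the start regions of genes that moved be set beside each other. Mrpl33, Mrps18b and Mrpl12 were lower in KO skin at P60, and Mrps21 and Mrps2 had 2 of the largest age changes, in opposite directions. Each line runs from 250 bases before to 50 bases after the annotated start in RefSeq (GRCm38.p6), in the direction of the gene. The windows lie at chr5:31613701-31614000 (plus strand) for Mrpl33, chr17:35916391-35916690 (minus) for Mrps18b, chr11:120484387-120484686 (plus) for Mrpl12, chr3:95871465-95871764 (minus) for Mrps21 and chr2:28467816-28468115 (plus) for Mrps2. Capitals mark the letters CCGGAAG, a core of ETS family sites, and CGCANGCG, the centre of the site of the nuclear respiratory factor NRF1, on either strand.
Mrpl33: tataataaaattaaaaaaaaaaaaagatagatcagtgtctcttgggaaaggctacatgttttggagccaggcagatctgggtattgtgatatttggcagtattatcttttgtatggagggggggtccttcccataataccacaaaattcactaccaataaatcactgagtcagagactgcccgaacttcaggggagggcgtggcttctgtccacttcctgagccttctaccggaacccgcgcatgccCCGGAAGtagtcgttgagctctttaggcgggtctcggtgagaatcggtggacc
Mrps18b: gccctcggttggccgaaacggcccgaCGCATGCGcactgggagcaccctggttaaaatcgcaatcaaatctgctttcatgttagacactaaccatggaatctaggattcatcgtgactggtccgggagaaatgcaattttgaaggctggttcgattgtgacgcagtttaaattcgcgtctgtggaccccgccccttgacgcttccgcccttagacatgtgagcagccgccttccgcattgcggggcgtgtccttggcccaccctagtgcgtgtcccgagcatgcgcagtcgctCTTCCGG
Mrpl12: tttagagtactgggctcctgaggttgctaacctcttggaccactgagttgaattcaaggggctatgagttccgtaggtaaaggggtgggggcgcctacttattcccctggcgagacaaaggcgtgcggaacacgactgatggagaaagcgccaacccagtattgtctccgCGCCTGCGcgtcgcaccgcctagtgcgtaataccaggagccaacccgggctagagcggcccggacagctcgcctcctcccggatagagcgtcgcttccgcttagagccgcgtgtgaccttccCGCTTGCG
Mrps21: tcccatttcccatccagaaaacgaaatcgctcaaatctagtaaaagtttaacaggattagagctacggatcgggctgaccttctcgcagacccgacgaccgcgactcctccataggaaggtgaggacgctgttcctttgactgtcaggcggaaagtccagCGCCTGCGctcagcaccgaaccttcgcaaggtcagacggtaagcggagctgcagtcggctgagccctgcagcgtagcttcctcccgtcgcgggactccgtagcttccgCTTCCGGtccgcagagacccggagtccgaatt
Mrps2: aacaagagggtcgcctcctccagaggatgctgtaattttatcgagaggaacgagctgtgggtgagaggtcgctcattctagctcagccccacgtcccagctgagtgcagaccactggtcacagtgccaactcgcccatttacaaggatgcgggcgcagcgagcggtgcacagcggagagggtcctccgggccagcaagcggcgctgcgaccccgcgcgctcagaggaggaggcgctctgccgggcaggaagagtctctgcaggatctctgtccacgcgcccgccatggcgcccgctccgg
Mrpl33 held 1 match to CCGGAAG and none to CGCANGCG, and Mrpl12 held 2 to CGCANGCG and none to CCGGAAG. Mrps18b and Mrps21 held 1 of each, and Mrps2 neither.

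Over all members, 69 had a window in the RefSeq promoter table, and 3 of them had more than 1, giving 75 windows. Mrpl13, Mrpl15, Mrpl19, Mrpl38, Mrpl4, Mrpl54, Mrps28, Mrps34 and Mrps35 had none. CCGGAAG stood in 34.7% of the members' windows, against 16% of the windows of tested genes and 8.86% of all 32851 windows. CGCANGCG stood in 26.7%, against 15.4% and 8.21%. A longer form with G before and C after it, which was searched first, stood in 17.3%, against 9.02% and 4.6%. AAGATGGCG, the core of YY1 sites, stood in 10.7%, against 2.72% and 1.4%. TATAAA was found in 6.67%, against 8.11% and 13.6%, CACGTG in 9.33%, against 9.59% and 7.15%, and CCAAT in 40%, against 37.3% and 37.4%. The longer form contains CGCANGCG, so its windows are among those of CGCANGCG. Both strands were searched, no other motif contains another, and bases shared by matches to different motifs were counted for each. Among the 13 windows of the 12 members lower in KO skin at P60, 5 held CCGGAAG (38.5%), 4 CGCANGCG (30.8%) and 1 AAGATGGCG (7.69%). By age, CCGGAAG stood in 41.2% of the 34 windows of members that passed as higher at P60 and in 36.8% of the 19 of those lower. For CGCANGCG these were 23.5% and 21.1%, and for AAGATGGCG 11.8% and 5.26%. A match describes the letters only and shows no binding.

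The summed level of the mitochondrial ribosomal protein genes was lower in both adult KO libraries than in both adult WT libraries. It was 1851 and 2199 RPKM in KO skin and 2514 and 2589 RPKM in WT skin at P60, and KO replicate 1 lay farthest down. The ratio of the group means was 0.794. At P1 the sums were 1915, 1769 and 1852 RPKM in KO skin and 1831, 1879 and 1794 RPKM in WT skin, a ratio of 1.01, and the groups overlapped. As a share of all RPKM of the library, the members took 0.484% and 0.540% in KO and 0.609% and 0.605% in WT skin at P60. Large-subunit members summed to 1377 ± 184 RPKM in KO and 1747 ± 52.7 RPKM in WT skin at P60, and small-subunit members to 615 ± 56.3 RPKM in KO and 763 ± 1.82 RPKM in WT skin (SD, n = 2 each).

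**Figure D1:**
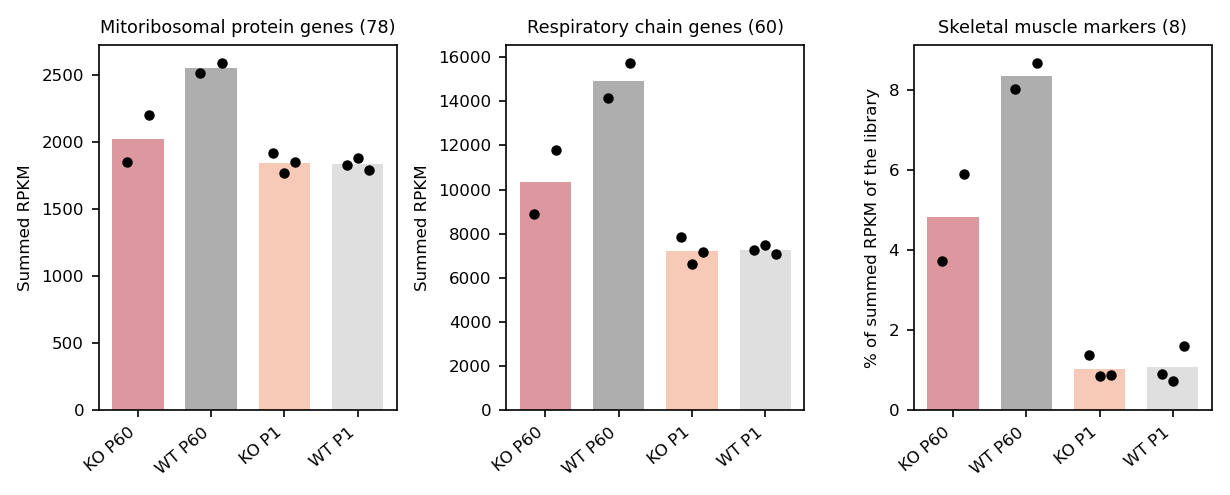
Summed RPKM of the 78 mitochondrial ribosomal protein genes (left) and of 60 nuclear-encoded respiratory chain genes (middle), and the share of 8 skeletal muscle markers in all RPKM of a library (right, in percent). Points are libraries and bars are group means, from KO P60 to WT P1. In each panel both KO P60 points lie below both WT P60 points, and the P1 groups overlap.

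At P60, 12 of 78 members were lower in KO skin and 0 were higher at an adjusted p under 0.05 (limma, Benjamini-Hochberg over all tested genes). Over all tested genes 11.1% passed, 2.91% lower and 8.21% higher. The estimate lay below 0 for 76 members, against 33.9% of tested genes, the exceptions being Mrps2 (0.03) and Mrpl22 (0.02). The median member change was -0.30, against 0.13 over all tested genes. Both KO libraries lay below both WT libraries for 58 members, or 74.4% against 18.8% of tested genes, and above them for 0 members, against 42.7%. At an unadjusted p under 0.05 there were 40 members, or 51.3% against 32.1%. The members had a median of -0.30 in the large subunit (7 of 51 lower) and -0.29 in the small subunit (5 of 26 lower), -0.31 among bacterial counterparts (8 of 45) and -0.29 among mitochondria-specific proteins (4 of 32).

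The count of members that passed rests on the fit and on single libraries. It was 0 with the samples of the contrast only and with quantile normalization. It was 1 without the expression filter, 3 with array weights and 37 with median-of-ratios size factors. Leaving out a library, it was 0 without KO replicate 1 or WT replicate 1 at P60, 23 without KO replicate 2 and 2 without WT replicate 2 at P60. It was 2, 0 and 0 without KO replicates 1, 2 and 3 at P1. Without WT replicates 1, 2 and 3 at P1 it was 0, 5 and 20. The shares of tested genes that passed in these alternatives are not given here. Other filters, array weights, the replicate block, the contrast's samples alone and leaving out a P1 library cannot move a P60 estimate. With the other pseudocounts, the other scalings or a P60 library left out, 72 to 78 estimates lay below 0.

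**Figure D2:**
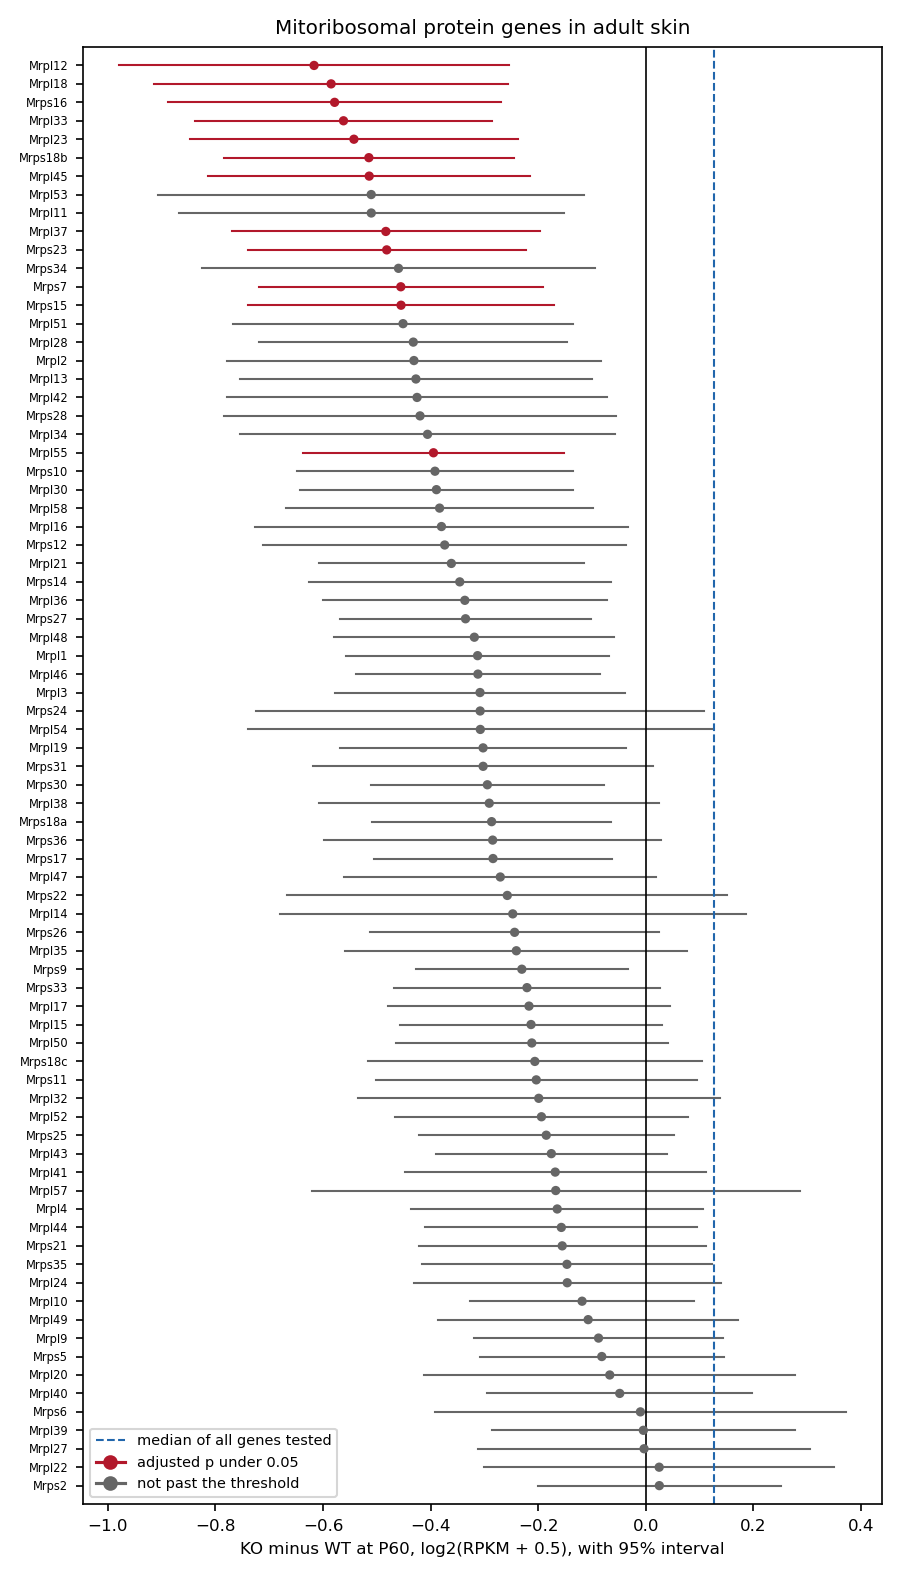
Change between KO and WT skin at P60 for each of the 78 members, as a difference of log2(RPKM + 0.5) with its 95% interval, ordered from the lowest at the top. The 12 members at an adjusted p under 0.05 are red, the solid line is 0 and the dashed line the median of all genes tested (0.13). All but Mrps2 and Mrpl22 lie at or left of 0.

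Mrpl33, counterpart of bacterial L33, gave the smallest p. It had 68.2 and 85.4 RPKM in KO skin and 116 and 110 RPKM in WT skin at P60, a change of -0.56 (SE 0.12, adjusted p = 0.0322, limma). Both KO values lay below both WT values, while at P1 the KO values of 49.8, 46.7 and 51.5 RPKM overlapped the WT values of 52.4, 53.7 and 48.3 RPKM. Mrps18b, one of 3 vertebrate relatives of bacterial S18, had 20.6 and 21.1 RPKM in KO and 32.9 and 27.3 RPKM in WT skin at P60 (-0.51, SE 0.12, adjusted p = 0.0361). Among the 12 members that passed, its KO libraries lay closest together, and the P60 groups did not overlap. Mrps16, counterpart of bacterial S16, whose loss in people causes a failure of mitochondrial translation, had 30.7 and 35.3 RPKM in KO and 52.8 and 46.3 RPKM in WT skin at P60 (-0.58, SE 0.14, adjusted p = 0.0376). These groups did not overlap either.

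Mrpl12 showed the lowest estimate of all members. It is the counterpart of the bacterial stalk protein L7/L12 and also binds the mitochondrial RNA polymerase in mammals. It had 43.4 and 56.8 RPKM in KO and 74.4 and 78.4 RPKM in WT skin at P60, a change of -0.62 (SE 0.16, adjusted p = 0.0446, limma), and 66.6, 59.4 and 56.3 RPKM in KO and 58.0, 61.1 and 47.0 RPKM in WT skin at P1. The adult groups were apart and the newborn groups overlapped. Mrpl45, a mitochondria-specific protein that ties the ribosome to the inner membrane, had 10.2 and 14.1 RPKM in KO and 17.6 and 17.2 RPKM in WT skin at P60, a change of -0.51. Mrpl23, at the mouth of the tunnel through which the new chain leaves, had 50.9 and 65.8 RPKM in KO and 86.8 and 82.4 RPKM in WT skin, a change of -0.54. Both had KO values below both WT values, with replicate 1 the lower of the KO pair. Mrps23 (-0.48), Mrpl18 (-0.58) and Mrps7 (-0.46) completed the 8 members of smallest p. Mrpl37 (-0.48), Mrpl55 (-0.39) and Mrps15 (-0.46) also passed and are named after their values were seen.

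**Figure D3:**
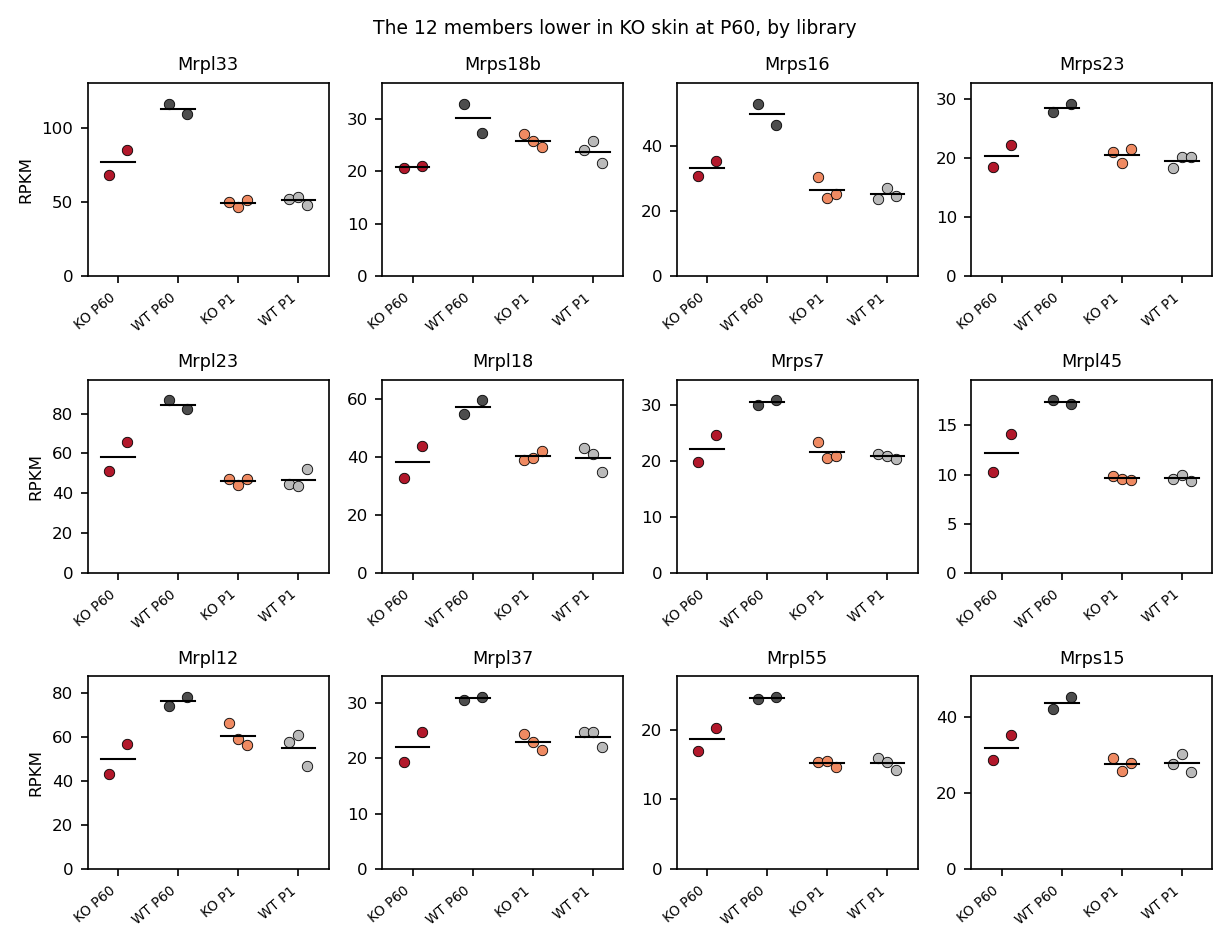
RPKM of the 12 members that passed at P60 in each library, with KO P60, WT P60, KO P1 and WT P1 from left to right in each panel. Points are libraries and lines are group means. In all 12 panels both KO P60 points lie below both WT P60 points, and the P1 groups overlap. The members were picked by the test on these P60 values, so their separation at P60 adds no support to it.

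KO replicate 1 was the lowest of the 4 P60 libraries for 69 members and lay below KO replicate 2 for 72. KO replicate 2 lay below both WT libraries for 60 members. The shares of tested genes in these orders are not given here. All genes together summed to 382609 and 407445 RPKM in KO replicates 1 and 2, and to 413116 and 427599 RPKM in WT skin. Against the mean of the WT libraries at P60, the median member stood at -0.37 in KO replicate 1 and at -0.21 in KO replicate 2. The median tested gene stood at 0.13 and 0.12. The size of the members' difference thus moved with the library, and its direction was shared by both KO libraries.

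In 18 members another gene or pseudogene holds a copy of at least 200 bases at 95% identity or more, 23 are overlapped by a gene on the opposite strand and 8 by one on the same strand. The sources used here name neither the strand of the kit nor that of the counting, so reads of such genes may have been shared. Of the members named here, Mrps18b has a copy (Gm13552) and an opposite-strand partner (Gm16279), and Mrpl21 and Mrpl27 have both as well. Mrps5, Mrps16, Mrps21, Mrps36, Mrpl22, Mrpl23 and Mrpl42 have copies, Mrpl12, Mrpl18, Mrpl19, Mrps7 and Mrps30 have opposite-strand partners, and Mrpl3, Mrpl33, Mrpl53, Mrps18c and Mrps24 have same-strand partners. Their values are uncertain to that extent. Among the 36 members with neither, 5 passed at P60 (Mrps23, Mrpl45, Mrpl37, Mrpl55 and Mrps15) and the median was -0.31.

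Genes that work with the mitochondrial ribosome were compared as lists, with the count of each that passed at P60. Of the 5 tested mitoribosome proteins under other names, Chchd1 was lower in KO skin, and the median was -0.28. Chchd1, a small-subunit protein, had 32.8 and 39.2 RPKM in KO and 48.4 and 49.7 RPKM in WT skin (-0.45, adjusted p = 0.0392, limma). Of 21 assembly factors, Malsu1, which binds the large subunit, was lower (-0.59), and the median was -0.16. Translation factors (0 of 13, median -0.17) and mitochondrial aminoacyl-tRNA synthetases (0 of 17, median -0.14) had none past the threshold. Of 13 genes of mitochondrial transcription and RNA handling, Tfam, which packs mitochondrial DNA and starts its transcription, was lower (-0.40), and the median was -0.24. Of 9 regulators of mitochondrial biogenesis, Ppargc1a was lower and the median was 0.21. Ppargc1a, the coactivator best known for raising mitochondrial genes in muscle and brown fat, had 0.992 and 1.15 RPKM in KO and 2.05 and 1.76 RPKM in WT skin (-0.61, adjusted p = 0.0458). The products of the mitochondrial genome itself were not analysed here.

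The nuclear-encoded respiratory chain, into which the products of this ribosome are built, had 23 of 60 genes lower in KO skin, 0 higher and a median of -0.55. Its summed RPKM was 8893 and 11801 in KO and 14128 and 15738 in WT skin at P60. Ndufs3, a subunit of complex I, had 63.8 and 84.6 RPKM in KO and 121 and 129 RPKM in WT skin (-0.76). The 78 cytosolic ribosomal protein genes had 0 past the threshold (limma), 2 at an unadjusted p under 0.05 and a median of -0.09.

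**Figure D4:**
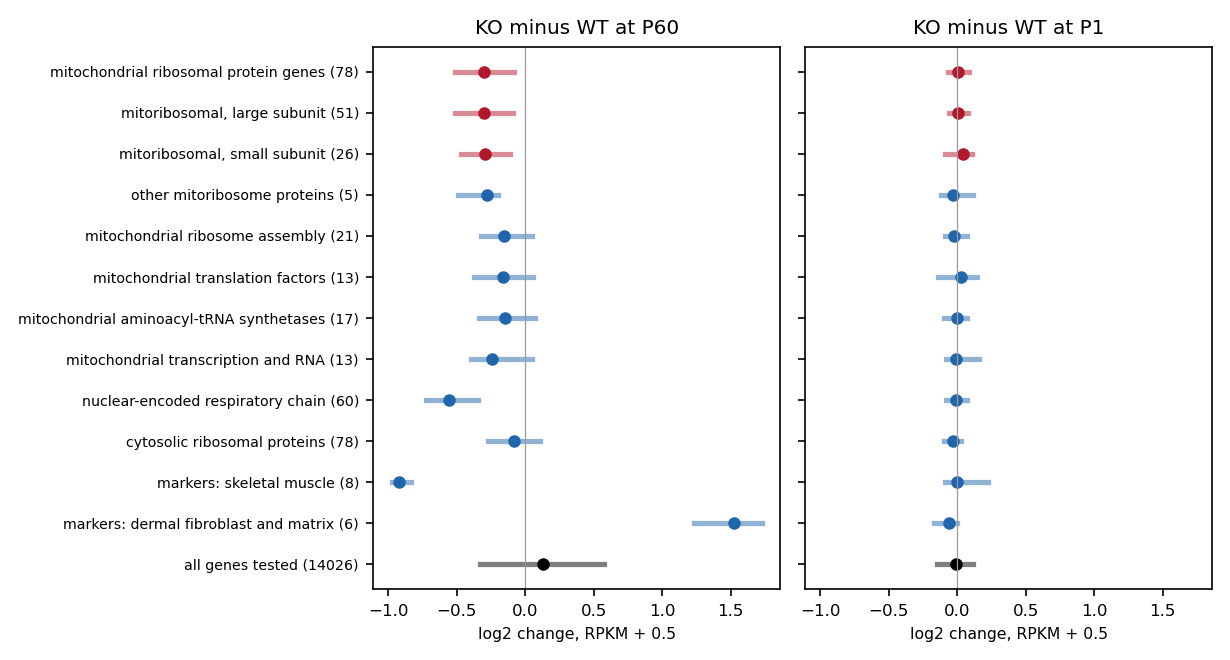
Median change (dots) and 10th to 90th percentile of genes (bars) for the mitochondrial ribosomal protein genes and their subunits (red), other lists (blue) and all genes tested (black), as differences of log2(RPKM + 0.5) between KO and WT skin at P60 (left) and P1 (right). The number of genes tested stands behind each name. At P60 the members have a median of -0.30, between the respiratory chain at -0.55 and the cytosolic ribosomal proteins at -0.09, and at P1 the lists other than small marker lists lie close to 0.

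The make-up of the adult samples moved with genotype as well. The 8 skeletal muscle markers took 3.72% and 5.91% of all RPKM in KO and 8.02% and 8.67% in WT skin at P60. By summed RPKM the 4 adult libraries stood in the same order for these markers, for the members and for all genes together. By share the WT libraries stood the other way round for the members, at 0.609% in replicate 1 and 0.605% in replicate 2. The muscle markers summed to 14250 and 24066 RPKM in KO and 33146 and 37090 RPKM in WT skin, 1 of 8 passed (Myh1, -0.89), all 8 estimates were below 0 with a median of -0.92, and none was at 0. The 6 dermal matrix markers summed to 23119 and 9561 RPKM in KO and 4250 and 5270 RPKM in WT skin and all 6 were higher (median 1.52). The 5 macrophage and dendritic cell markers summed to 520 and 371 RPKM in KO and 173 and 217 RPKM in WT skin, and all 5 were higher (median 1.31). The 4 T cell markers summed to 20.7 and 17.2 RPKM in KO and 12.9 and 9.46 RPKM in WT skin, and 3 of 4 were higher (median 0.68). The 6 white adipocyte markers summed to 959 and 1274 RPKM in KO and 536 and 1163 RPKM in WT skin, none passed (limma), 2 had an unadjusted p under 0.05, and all 6 estimates were above 0 (median 0.90). The 4 brown adipocyte markers summed to 340 and 489 RPKM in KO and 620 and 641 RPKM in WT skin. This is again the order of the members' sum and of the sum of all genes. None of the 3 tested passed (limma), 1 had an unadjusted p under 0.05, 2 estimates were below 0, and the median was -0.61. Most of the brown adipocyte sum came from Cox8b and Cox7a1, which muscle also expresses and which belong to the respiratory chain list. Ucp1, the defining gene of brown fat, had 0.0183 and 0 RPKM in KO and 0.0706 and 0 RPKM in WT skin, and Cidea had 18.0 and 7.36 RPKM in KO and 11.5 and 4.66 RPKM in WT skin. No gene passed among the markers of basal and suprabasal epidermis, hair follicle, endothelium, erythroid cells and dividing cells at P60 (limma), and 1 each in basal and suprabasal epidermis had an unadjusted p under 0.05. The part of these shifts in the members' difference was not tested, and in bulk RNA fewer cells of a type and less RNA per cell cannot be told apart.

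In newborn skin no member passed the test between KO and WT. At P1, 0 of 78 passed (limma), as did 0% of tested genes, and 1 member had an unadjusted p under 0.05, against 0.927% of tested genes. The median member change was 0.01, against -0.01 over all tested genes, and 34 estimates lay below 0, against 54.2% of tested genes. Without KO replicate 2 at P1, the library with Eif2s3y, 20 estimates lay below 0 and the median was 0.04, and with array weights 50 did and the median turned to -0.03. Both signs were about equally common where groups were apart, with 2 members higher and 2 lower, against 2.08% and 2.48% of tested genes. A member had a median 95% interval of ±0.28 in adult and ±0.23 in newborn skin.

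The lowest p at P1 belonged to Mrps9, counterpart of bacterial S9, with 17.0, 16.9 and 17.5 RPKM in KO and 18.6, 20.1 and 18.9 RPKM in WT skin (-0.16, SE 0.07, adjusted p = 1, limma). All KO values lay below all WT values. Mrpl21, counterpart of bacterial L21, had 16.1, 13.7 and 15.1 RPKM in KO and 13.2, 13.2 and 12.6 RPKM in WT skin (0.20), with all KO values above. The other members named by p at P1 were Mrps5 (0.13) and Mrpl16 (0.16), estimated higher, and Mrps30 (-0.16) and Mrpl27 (-0.15), estimated lower.

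The difference between the genotype effects at P60 and at P1 was tested directly. No member and 0% of tested genes passed (limma), and 30 members, or 38.5%, had an unadjusted p under 0.05, against 22.9% of tested genes. The median was -0.33, against 0.14 over all tested genes, and 74 estimates lay below 0, against 34.1% of tested genes. The smallest p belonged to Mrps18b (-0.64, SE 0.16, adjusted p = 0.110), Mrpl21 (-0.56) and Mrps23 (-0.55). Without KO replicate 2 at P60, 9 members passed, and 1 passed with array weights.

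Between the ages the members divided. Averaged over genotypes, 32 members were higher at P60 and 22 lower (limma, adjusted p under 0.05), together 69.2% against 81.7% of tested genes, or for each direction against 24.3% and 57.3% of tested genes. All P60 libraries lay above all P1 libraries for 22 members and below them for 13, against 16.5% and 50.1% of tested genes. The median member change was 0.11, against -0.39 over all tested genes, so relative to the median of tested genes the members stood 0.50 higher. With median-of-ratios size factors, which bring the median of tested genes to 0.00, the split was 60 higher and 7 lower, and with quantile normalization 53 and 7. The median member then stood 0.53 and 0.39 above the median of tested genes. The shares of tested genes that passed under these scalings are not given here. The direction of some members thus depended on the scaling, also of members that had passed as lower. Averaged over genotypes, Mrpl22 (-0.31) and Mrpl16 (-0.30) turned to 0.11 and 0.12 with median-of-ratios size factors. In WT skin, Mrpl3 (-0.39) turned to 0.12 with these factors, and Mrpl19 (-0.48) to 0.10 with quantile normalization.

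Mrps24, counterpart of bacterial S3 at the entry of the messenger, had the largest increase. It had 36.6 and 40.004 RPKM in KO and 41.8 and 53.9 RPKM in WT skin at P60, and 20.2, 17.9 and 16.3 RPKM in KO and 16.6, 16.4 and 23.1 RPKM in WT skin at P1, a change of 1.20 (SE 0.12, adjusted p = 6.80e-06, limma). All P60 values lay above all P1 values. Mrpl42, a mitochondria-specific large-subunit protein, had 81.7 and 108 RPKM in KO and 132 and 120 RPKM in WT skin at P60, and 53.5, 41.2 and 48.5 RPKM in KO and 46.7, 47.1 and 51.9 RPKM in WT skin at P1 (1.17, SE 0.10). The ages did not overlap. Mrps21, counterpart of bacterial S21, had 99.9 and 116 RPKM in KO and 130 and 110 RPKM in WT skin at P60, and 53.3, 56.6 and 58.5 RPKM in KO and 52.7, 56.8 and 51.5 RPKM in WT skin at P1 (1.04, SE 0.08). Its ages were likewise apart. Mrpl53 (0.96), Mrpl33 (0.88), Mrpl30 (0.77), Mrpl2 (0.70) and Mrpl52 (0.68) followed. These 8 include the 5 members with the highest mean RPKM, a mean that holds the P60 values themselves, and 3 of the 5 members highest at P1.

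Mrpl20, counterpart of bacterial L20, an early assembling protein of the large subunit in bacteria, fell most. It had 24.7 and 29.2 RPKM in KO and 27.4 and 28.8 RPKM in WT skin at P60, and 57.5, 55.1 and 65.8 RPKM in KO and 59.7, 68.2 and 50.1 RPKM in WT skin at P1, a change of -1.09 (SE 0.10, adjusted p = 3.56e-06, limma). Mrps22, a mitochondria-specific small-subunit protein whose variants in people impair mitochondrial translation, had 7.20 and 5.61 RPKM in KO and 8.28 and 7.16 RPKM in WT skin at P60, and 14.8, 14.7 and 16.6 RPKM in KO and 14.6, 16.7 and 11.2 RPKM in WT skin at P1 (-1.01, SE 0.12). Mrps2, counterpart of bacterial S2, had 8.18 and 8.12 RPKM in KO and 8.49 and 7.54 RPKM in WT skin at P60, and 16.7, 17.2 and 17.2 RPKM in KO and 17.6, 16.6 and 15.4 RPKM in WT skin at P1 (-1.01, SE 0.07). For all 3 every P60 value lay below every P1 value, and the sign was the same under each alternative scaling. Mrpl39 (-0.86), Mrpl50 (-0.86), Mrps5 (-0.70), Mrpl19 (-0.67) and Mrpl3 (-0.56) were the next lower members. Mrps22 fell by 1.21 in KO skin and by 0.82 in WT skin, a difference that did not pass (adjusted p = 0.351, limma), and Mrps2 fell by 1.02 in KO and by 0.999 in WT skin.

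Within each genotype the balance of calls with age was as follows, the difference between genotypes being the one tested above with 0 members past the threshold. In KO skin 21 members were higher at P60 and 23 lower, against 21.6% and 49.2% of tested genes, with a median of -0.04, against -0.32. In WT skin 40 members were higher and 10 lower, against 20% and 56% of tested genes, with a median of 0.29, against -0.47. With median-of-ratios size factors the splits were 37 and 10 in KO skin and 63 and 3 in WT skin, with quantile normalization 34 and 10 and 58 and 5, and the KO median turned to 0.29 and 0.19. Shares of tested genes for these splits are not given here. The KO median also turned to 0.07 without KO replicate 1 at P60 and to 0.04 with array weights. The summed RPKM at P60 was 1.10 times that at P1 in KO skin and 1.39 times in WT skin. Muscle markers took 0.849% to 1.37% of all RPKM in KO and 0.730% to 1.61% in WT skin at P1, and all 8 were higher at P60 (median 3.13), while all 7 markers of dividing cells were lower (median -3.74). The part of these shifts in the members' changes was not tested.

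Across the genotypes, 21 members were higher at P60 in both and 10 lower in both. Another 18 passed as higher in WT skin alone and 12 as lower in KO skin alone, and 16 passed in neither. Shares of tested genes for these joint counts are not given here. Taken singly, 21.6% of tested genes were higher and 49.2% lower in KO skin, and 20% and 56% in WT skin. A pass in 1 genotype alone is not a tested difference. The estimate in KO skin lay below that in WT skin for 74 members, against 34.1% of tested genes. Mrps18b alone passed in opposite directions, at -0.31 in KO skin (adjusted p = 0.0301, limma) and 0.33 in WT skin (adjusted p = 0.0190). With median-of-ratios size factors its KO estimate was 0.04. Its P1 values were 27.1, 25.8 and 24.7 RPKM in KO and 24.0, 25.8 and 21.5 RPKM in WT skin, so WT skin at P60 lay above them and KO skin at P60 below them. Mrps18a, which sits in the large subunit, was higher at P60 in both genotypes (0.46 in KO and 0.82 in WT skin), and Mrps18c was lower in KO skin (-0.36, and -0.09 in WT skin, not past the threshold). The difference of the genotype effects was below 0 for all 3 relatives of S18, at -0.64 for Mrps18b, -0.36 for Mrps18a and -0.27 for Mrps18c, none past the threshold, and the 3 were not tested against each other.

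**Figure D5:**
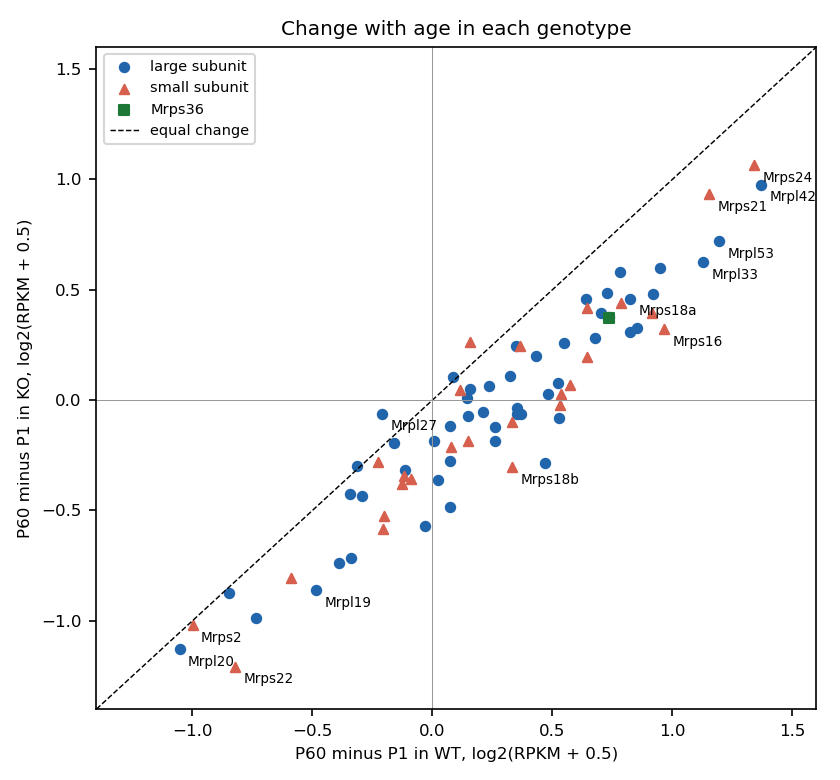
Change from P1 to P60 in KO skin (vertical) against that in WT skin (horizontal) for each member, as differences of log2(RPKM + 0.5), with large-subunit proteins as blue circles, small-subunit proteins as red triangles and Mrps36 as a green square. The dashed line marks equal change, and 74 of 78 points lie below it. Mrps24 and Mrpl42 stand at the upper right and Mrpl20, Mrps2 and Mrps22 at the lower left.

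Mrps36 and Mrps12 were followed for their roles. Mrps36, the dehydrogenase component, had 30.4 and 37.1 RPKM in KO and 39.8 and 42.2 RPKM in WT skin at P60 (-0.28, adjusted p = 0.192, limma), and was higher at P60 than at P1 (0.55). Mrps12, counterpart of bacterial S12 at the decoding site, had 26.3 and 34.8 RPKM in KO and 37.9 and 40.8 RPKM in WT skin at P60 (-0.37, adjusted p = 0.122), and was also higher at P60 (0.61). Both had KO values below both WT values in adult skin without passing the test.

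In the authors' deposited table, which sets KO against WT, the members' ratio at P60 lay under 1 for 76 of 78, with a median of 0.809. Its p-values were under 0.05 for 15 members at P60 and 1 at P1, and its q-values for 0 at either age.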

How the data were processed

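Total RNA of 10 libraries was sequenced. Per the submitters' processing notes, reads were aligned to mm10 with TopHat2 2.1.0 and quantified in Partek, without a named gene annotation. The authors deposited RPKM per gene, counts of alignments per library, and a table with log2 group means, the ratio of KO over WT, p-values and q-values. The model behind those p-values was not used. From the RPKM, log2(RPKM + 0.5) was fitted with limma 3.58.1 in R 4.3.3, with 1 mean per group, a variance trend and all 10 libraries, after a filter of at least 1 RPKM in at least 2 libraries. Adjustment followed Benjamini and Hochberg over all 14026 genes within each contrast. The fit was tested on simulated data for both genotype contrasts. The planted changes were larger than any member's genotype change, so changes of the members' size were not tried. No read counts are at hand, so the depth behind a member is known only through the alignments. Copies and overlaps came from GENCODE M21 with BLAST 2.17.0, and promoters from RefSeq.

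The members and lists were chosen with earlier results of these data known. Named members are the 5 highest and lowest by mean, the 8 largest age changes in each direction, the 8 of smallest p at P60 among those called, the 3 of smallest p in each direction at P1, the 3 of smallest p for the difference, and Mrps18a, Mrps18b, Mrps18c, Mrps36, Mrpl12 and Mrps12. Other pseudocounts, filters, scalings, weights, a replicate block, the samples of the contrast alone and each library left out were tried as alternatives.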

Additional observations from a re-analysis of the deposited data

How the results depend on the processing

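The count of members lower in KO skin at P60 (12) was 1 without the expression filter, 37 with median-of-ratios size factors, 0 with quantile normalization, 3 with array weights, 0 with the replicate block, 0 with the samples of the contrast only, 5 among members with neither a copy nor an overlap, and 0 to 23 with 1 library left out. Its median (-0.30) was -0.44 with median-of-ratios size factors and -0.37 to -0.21 with 1 library left out. At P1 the count was 0 throughout, and the median 0.01 was -0.01 to 0.04 with 1 library left out and -0.03 with array weights. The difference of the genotype effects (0 members, median -0.33) gave 1 member with array weights and 0 to 9 with 1 library left out, with medians of -0.40 to -0.21, and -0.49 with median-of-ratios size factors. For age averaged over genotypes the count (54) was 25 among members with neither a copy nor an overlap and 48 to 53 with 1 library left out, and the median (0.11) was 0.53 with median-of-ratios size factors, 0.35 with quantile normalization and 0.07 to 0.15 with 1 library left out. In KO skin the count (44) was 21 among members with neither and 30 to 45 with 1 library left out, and the median (-0.04) turned to 0.29 with median-of-ratios size factors, 0.19 with quantile normalization and 0.0397 with array weights, and was -0.15 to 0.0694 with 1 library left out. In WT skin the count (50) was 25 among members with neither and 41 to 51 with 1 library left out, and the median (0.29) was 0.79 with median-of-ratios size factors, 0.53 with quantile normalization and 0.27 to 0.31 with 1 library left out.

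The counts among members with neither fell because 36 members are left. For the alternatives, the shares of tested genes that passed are not given here. Median-of-ratios size factors turned the sign of the age change averaged over genotypes for Mrpl15 (0.19), Mrpl1 (0.28), Mrpl22 (0.11), Mrpl21 (0.21), Mrpl16 (0.12), Mrpl27 (0.29) and Mrps18c (0.20), in KO skin for Mrpl15 (0.00625), Mrpl1 (0.0280), Mrps18b (0.0359) and Mrps23 (0.32), and in WT skin for Mrpl15 (0.37), Mrpl3 (0.12), Mrpl16 (0.47) and Mrps18c (0.42). Quantile normalization turned it averaged over genotypes for Mrpl15 (0.21), Mrpl1 (0.37), Mrpl21 (0.12) and Mrpl16 (0.00936), in KO skin for Mrpl15 (0.0397) and Mrpl1 (0.0879), and in WT skin for Mrpl15 (0.39) and Mrpl19 (0.10). Both scalings raise the P60 libraries, whose median gene is lower. The cause of the other moves was not tested.

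With the replicate number as a block, no member passed at P60, and the fit leaves fewer degrees of freedom. Same-numbered KO and WT samples deviated from their group means with correlations of -0.17, 0.24 and -0.26 at P1 and 0.24 at P60. At P1 same-numbered samples were thus not more alike than others, as KO replicate 1 and WT replicate 3 reached 0.34. Deviations within a group sum to 0, so the P1 values cannot exclude that the numbers pair the samples. At P60, with 2 libraries in each group, this is a single contrast and does not show whether the numbers pair them. With 2 libraries in each adult group, single libraries decide which members pass.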

Other observations

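Across the 78 members, the change from P1 to P60 was lower the longer the transcript, with a Spearman correlation of -0.42, against -0.28 across the 13201 tested genes with a coding transcript length in GENCODE. The longest transcript had a median of 967.5 bases in the members higher at P60 and 1964.5 bases in those lower. The correlation of the age change with mean RPKM was 0.56 across members. Across tested genes it was taken with mean log2 RPKM, an unlike measure, and was 0.10. Both means hold the P60 values that enter the change. With the mean log2 value at P1, which enters the change with the opposite sign, the correlation was 0.41 across members and -0.13 across tested genes. These are descriptions over genes of the same libraries, and all P60 libraries share a run. With the KO minus WT change at P60, transcript length had a correlation of 0.11 across members.

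The start of 18 members, or 23.1%, lay within 1000 bases of the start of a coding gene running the other way, against 6.79% of all coding genes. Mrps18b shares such a start region with Ppp1r10, a subunit of a nuclear phosphatase complex, at 45 bases.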
